A study of Homo sapiens with 10 samples.

Results

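The ferritin and iron handling mRNAs are 8 protein-coding genes, taken as the entries of the count table whose GENCODE release 29 symbol is FTH1, FTL, TFRC, SLC11A2, SLC39A14, ACO1, IREB2 or NCOA4. All 8 were found among the 94946 entries of the table. They were measured in 9 libraries of total RNA from extracellular vesicles (EVs), the membrane particles that cells release, and in 1 library from whole cells of the same line. The cells were PC3, an established human prostate cancer line of epithelial type, grown in DMEM with L-glutamine (2 mM), penicillin, streptomycin and fetal bovine serum (10%). EVs were collected at 3 centrifugation steps, named 2.8K, 10K and 100K in the labels without a unit, and each gave 3 libraries (EV 2.8K, EV 10K and EV 100K), while whole cells (PC3 cells) gave 1. All groups share the same line and medium, and the labels name no genotype change, agent or time point in any of them. The labels number 3 sets per spin and do not say whether these came from separate cultures, so p-values measure the spread between these libraries, which may be technical.

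Cells set their iron stores and uptake largely after transcription. Iron regulatory proteins bind a stem-loop called the iron-responsive element (IRE), with a bulged C and a CAGTGN loop, when iron is scarce. An IRE in the 5′ untranslated region (UTR) of an mRNA then blocks its translation, as in both ferritin chains, which store iron. IREs in the 3′ UTR protect the mRNA from decay, as in TFRC, the transferrin receptor that brings iron into the cell. The IRE-bearing mRNAs are therefore set apart below from the 4 members without a textbook IRE.

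The IRE sequences that a motif search found in the members with a textbook IRE are shown first, since the results below set these members beside the others. An IRE that departs from the motif would be missed, so the number of matches need not be the number of IREs. In the GENCODE 29 transcripts (GRCh38), FTH1-201 held 1 match in exon 1 of 4, in the 5′ UTR at chr11:61967574-61967601 on the minus strand. FTL-201 held 1 in exon 1 of 4, in the 5′ UTR at chr19:48965336-48965363 on the plus strand. TFRC-201 held 4 in exon 19 of 19, in the 3′ UTR on the minus strand, at chr3:196050979-196051006 (site 1), chr3:196050575-196050602 (site 2), chr3:196050510-196050537 (site 3) and chr3:196050463-196050490 (site 4). SLC11A2-203 held 1 in exon 17 of 17, in the 3′ UTR at chr12:50988269-50988296 on the minus strand. Each is printed 5′ to 3′ on the transcript strand, with the bulged C and the CAGTGN loop in capitals.
FTH1: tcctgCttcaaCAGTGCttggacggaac
FTL: tcttgCttcaaCAGTGTttggacggaac
TFRC site 1: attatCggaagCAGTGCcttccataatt
TFRC site 2: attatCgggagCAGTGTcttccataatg
TFRC site 3: tgtatCggagaCAGTGAtctccatatgt
TFRC site 4: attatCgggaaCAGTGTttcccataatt
SLC11A2: gccatCagagcCAGTGTgtttctatggt

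The motif searched was a C, 5 bases, CAGTGN and then 5 bases that pair with the first 5 (Watson-Crick or G-T), on the transcript strand only. The FTH1, FTL and TFRC sites had all 5 pairs and the SLC11A2 site had 4. Over the 28 bases, FTL differed from FTH1 by the substitutions C3T and C17T, counted from 1 at the 5′ end of the 28 bases, and the second of these is the last base of the loop. A match with 5 pairs was held by 31 of 19021 protein-coding genes with a 5′ UTR (0.163%) and by 128 of 19133 with a 3′ UTR (0.669%). With 4 pairs or more the shares were 1.272% and 4.641%, so the SLC11A2 match belongs to a wider class. That match was present in 5 of the 11 basic coding transcripts of SLC11A2, and the gene counts do not separate the forms with it from those without. ACO1 and IREB2 each held 1 match with 4 pairs in the 3′ UTR, as SLC11A2 did, and neither NCOA4 nor SLC39A14 held any. SLC11A2 is grouped with TFRC from the textbook listing, since the motif search alone would not separate it from ACO1 and IREB2.

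**Figure D1:**
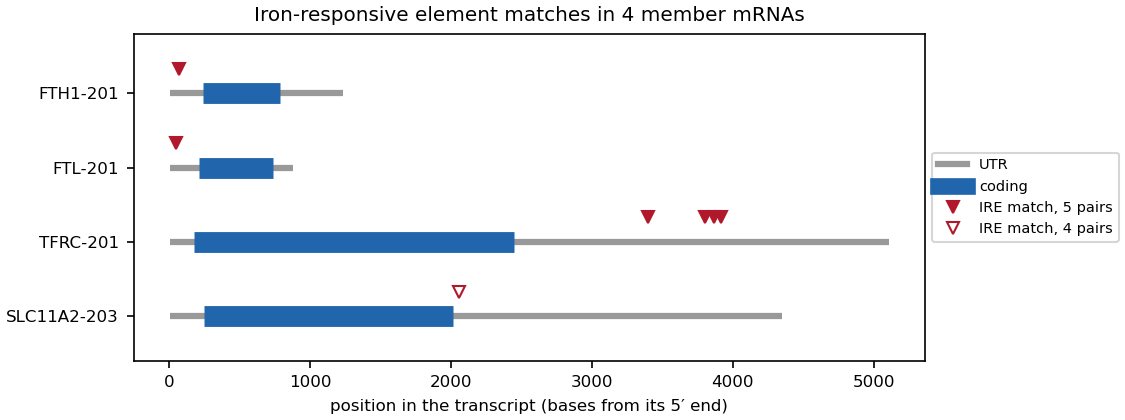
IRE matches along 4 mRNAs, with the position in bases from the 5′ end of the transcript on the x axis, UTRs in grey and coding sequence in blue. Filled triangles have 5 pairs and the open one has 4; the ferritin matches lie near the 5′ end, and those of TFRC and SLC11A2 lie after the coding sequence.

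Total counts were between 5424964 and 28735081 per library, and 2 of the 3 EV 100K libraries were the shallowest. Mitochondrially encoded genes took 4.81% to 12.9% of counts in EV 2.8K, 0.826% to 1.04% in EV 10K, 0.00544% to 0.00802% in EV 100K and 2.88% in PC3 cells. EV 2.8K replicate 1 stood apart with the 12.9%, and the members' differences between 2 pellets whose call changed without it are given both ways. The markers chosen for this line, the epithelial KRT8, KRT18, KRT19 and EPCAM and the mesenchymal VIM, summed to 2480 to 3140 CPM (a count scaled to the library's total times its TMM factor, which evens out composition between libraries) in EV 2.8K, 1890 to 2520 CPM in EV 10K, 909 to 1090 CPM in EV 100K and 1780 CPM in PC3 cells. The androgen-driven KLK3 had no count in any library, and the other marker lists were low: 5 androgen receptor programme genes summed to 6.16 to 23.5 CPM, 8 erythroid and serum genes to at most 2.77 CPM, and 5 leukocyte genes to at most 3.56 CPM. For KLK3, a count of 0 allowed up to 3 counts, or up to 0.55 CPM in the shallowest library.

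Ferritin heavy chain mRNA (FTH1, the subunit that oxidises iron for storage) was the most abundant member in every EV library and fell in the EV 100K pellet. FTH1 (chr11:61959718-61967660, minus strand) had 3392, 2932 and 2260 CPM in EV 2.8K, 2504, 4794 and 3454 CPM in EV 10K, 1133, 1124 and 979.5 CPM in EV 100K, and 803.5 CPM in PC3 cells. The TMM factors behind these CPM were computed over the 10 libraries together. All 3 EV 100K libraries lay below all 6 other EV libraries, whose 2 groups overlapped. The log2 fold change was -1.41 (SE 0.23, adjusted p = 0.000123) for EV 100K against EV 2.8K, and -1.74 (SE 0.23, adjusted p = 7.96e-05) for EV 100K against EV 10K. These and the following p-values are from edgeR's quasi-likelihood test with Benjamini-Hochberg adjustment over 15525 genes, with n = 3 libraries per pellet. EV 10K against EV 2.8K gave 0.33 (SE 0.22, adjusted p = 0.464), which did not pass. A level here is relative to the other RNA of the library. A lower level of an mRNA in a pellet cannot be told apart as fewer vesicles that carry it, as less of it per vesicle or as more of other RNA.

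Ferritin light chain mRNA (FTL, the subunit that helps form the iron core) passed the test in no comparison of pellets in the fit to the 9 EV libraries. FTL (chr19:48965301-48966878, plus strand) had 600.9, 473.3 and 286.6 CPM in EV 2.8K, 514.7, 833.6 and 576.4 CPM in EV 10K, 415.7, 426 and 352.6 CPM in EV 100K, and 185.6 CPM in PC3 cells. The EV 100K values lay within the range of EV 2.8K and below all 3 of EV 10K. EV 100K against EV 2.8K gave -0.20 (SE 0.25, adjusted p = 0.65), EV 100K against EV 10K gave -0.70 (SE 0.25, adjusted p = 0.0841), and EV 10K against EV 2.8K gave 0.50 (SE 0.25, adjusted p = 0.261). Without EV 2.8K replicate 1, the value for EV 100K against EV 2.8K was 0.07 and FTL fell in EV 100K against EV 10K (-0.69, adjusted p = 0.0247). That comparison of EV 100K with EV 10K also passed in 1 other leave-one-out fit, without EV 2.8K replicate 3 (adjusted p = 0.036), and without a filter on low counts (0.024), from all 10 libraries (0.0237) and from the 6 libraries compared (0.0179).

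The ratio of both chains within a library does not depend on the scaling between libraries. The FTH1 count was 5.65, 6.19 and 7.89 times the FTL count in EV 2.8K, 4.87, 5.75 and 5.99 times in EV 10K, 2.73, 2.64 and 2.78 times in EV 100K, and 4.33 times in PC3 cells. The 3 EV 100K libraries had the lowest ratios of the 10, and the cell library lay between them and the other EV libraries. The ratio was given no test.

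Of the uptake mRNAs, TFRC and SLC39A14 fell in EV 100K and SLC11A2 did not pass. TFRC (chr3:196027183-196082189, minus strand) had 239.6, 320.3 and 297.7 CPM in EV 2.8K, 179.7, 288.6 and 155.4 CPM in EV 10K, 146.7, 139.9 and 135.2 CPM in EV 100K, and 663.7 CPM in PC3 cells. The EV 100K libraries lay below all other EV libraries, and the cell library lay above all 9. TFRC fell in EV 100K against EV 2.8K (-1.03, SE 0.23, adjusted p = 0.0025), while EV 100K against EV 10K (-0.57, SE 0.23, adjusted p = 0.131) and EV 10K against EV 2.8K (-0.46, SE 0.23, adjusted p = 0.269) did not pass.

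SLC11A2 (DMT1, which carries ferrous iron across the endosomal and the apical membrane; chr12:50979401-51028566, minus strand) was low throughout. It had 1.604, 22.69 and 21.57 CPM in EV 2.8K, 20.33, 15.97 and 12.79 CPM in EV 10K, 41.24, 38.86 and 35.11 CPM in EV 100K, and 25.25 CPM in PC3 cells. The EV 100K libraries were the highest of the 10, and EV 2.8K replicate 1, with 21 counts, was far below the rest. The fitted differences did not pass for EV 100K against EV 2.8K (1.32, SE 0.62, adjusted p = 0.134), for EV 100K against EV 10K (1.22, SE 0.62, adjusted p = 0.256) or for EV 10K against EV 2.8K (0.10, SE 0.61, adjusted p = 0.961). Without EV 2.8K replicate 1, SLC11A2 rose in EV 100K against EV 10K (1.23, adjusted p = 0.0154), EV 100K against EV 2.8K gave 0.79 (adjusted p = 0.136), and EV 10K against EV 2.8K gave -0.43 (adjusted p = 0.555).

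SLC39A14 (ZIP14, an importer of zinc and of iron not bound to transferrin; chr8:22367249-22434129, plus strand) set the EV 2.8K pellet apart from both others. It had 94.69, 106.9 and 138.2 CPM in EV 2.8K, 30.11, 46.39 and 46.98 CPM in EV 10K, 34.78, 48.94 and 23.51 CPM in EV 100K, and 162.3 CPM in PC3 cells. EV 2.8K did not overlap EV 10K or EV 100K, which overlapped each other. SLC39A14 fell in EV 10K against EV 2.8K (-1.46, SE 0.31, adjusted p = 0.0068) and in EV 100K against EV 2.8K (-1.67, SE 0.31, adjusted p = 0.000502), and EV 100K against EV 10K gave -0.21 (SE 0.30, adjusted p = 0.798).

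The mRNAs of both iron regulatory proteins moved in opposite directions in EV 100K against EV 2.8K. ACO1 (IRP1, a cytosolic aconitase when it holds an iron-sulfur cluster and an IRE binder when it does not; chr9:32384603-32454769, plus strand) had 33.37, 28.6 and 38.04 CPM in EV 2.8K, 23.22, 38.72 and 40.73 CPM in EV 10K, 14.03, 19.61 and 10.96 CPM in EV 100K, and 63.03 CPM in PC3 cells. IREB2 (IRP2, an IRE binder that is degraded when iron is plentiful; chr15:78437431-78501456, plus strand) had 6.872, 25.76 and 33.88 CPM in EV 2.8K, 29.78, 49.15 and 40.54 CPM in EV 10K, 85.84, 56.09 and 89.61 CPM in EV 100K, and 43.2 CPM in PC3 cells. For ACO1 the EV 100K libraries were the lowest of the 10, and for IREB2 they were the highest. ACO1 fell in EV 100K against EV 2.8K (-1.17, SE 0.39, adjusted p = 0.032) and IREB2 rose (1.79, SE 0.44, adjusted p = 0.00477). Without EV 2.8K replicate 1, the lowest IREB2 library, the IREB2 value was 1.37 and still passed. The ACO1 call was lost without EV 2.8K replicate 3 (adjusted p = 0.0925), EV 10K replicate 2 (0.0583), EV 10K replicate 3 (0.0539), EV 100K replicate 1 (0.127) or EV 100K replicate 3 (0.172).

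Against EV 10K, EV 100K gave -1.21 for ACO1 (SE 0.39, adjusted p = 0.0528) and 0.95 for IREB2 (SE 0.43, adjusted p = 0.19), and neither passed. Without EV 2.8K replicate 1, which had 90 counts of IREB2, both did (ACO1 -1.21, adjusted p = 0.0264; IREB2 0.95, adjusted p = 0.0226). ACO1 in that comparison also passed without EV 10K replicate 1 (adjusted p = 0.0334). EV 10K against EV 2.8K gave 0.04 for ACO1 (SE 0.38, adjusted p = 0.977) and 0.85 for IREB2 (SE 0.43, adjusted p = 0.277). Without EV 2.8K replicate 1, IREB2 gave 0.42 there (adjusted p = 0.479). The IREB2 count was 0.206, 0.901 and 0.891 times the ACO1 count in EV 2.8K, 1.28, 1.27 and 0.995 times in EV 10K, 6.12, 2.86 and 8.17 times in EV 100K, and 0.685 times in PC3 cells, so only EV 100K held several IREB2 reads for each ACO1 read.

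NCOA4, the receptor that delivers ferritin to autophagy for iron release (chr10:46005088-46030714, minus strand), had 47.34, 66.86 and 75.55 CPM in EV 2.8K, 43.44, 44.5 and 51.71 CPM in EV 10K, 21.74, 26.03 and 22.4 CPM in EV 100K, and 78.11 CPM in PC3 cells. The EV 100K libraries lay below all others, and the other pellets overlapped. NCOA4 fell in EV 100K against EV 2.8K (-1.44, SE 0.30, adjusted p = 0.00132) and against EV 10K (-1.0, SE 0.30, adjusted p = 0.0353), and EV 10K against EV 2.8K gave -0.44 (SE 0.29, adjusted p = 0.442). The call against EV 10K was lost without any 1 of the 6 EV 10K and EV 100K libraries (adjusted p between 0.0566 and 0.172).

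**Figure D2:**
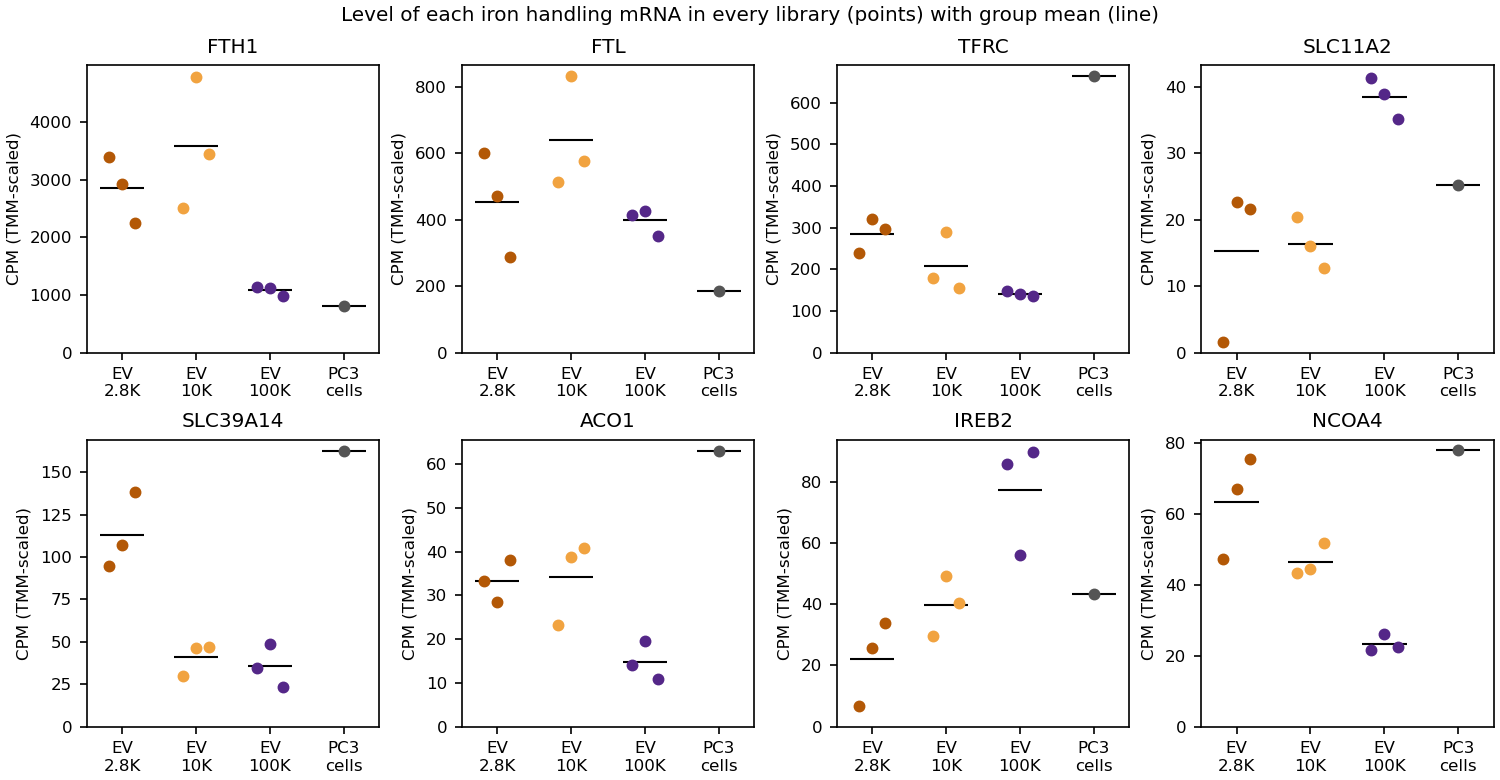
Level of each member in every library, in TMM-scaled CPM on a linear y axis from 0, with points for libraries and lines for group means. The 3 EV 100K libraries are the highest for SLC11A2 and IREB2, and the lowest EV libraries for FTH1, TFRC, ACO1 and NCOA4.

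Counted over the group, 6 of the 8 members passed the test in EV 100K against EV 2.8K, where 25.8% of all genes did. IREB2 was the 1 that rose, against 12.0% of all genes, and FTH1, TFRC, SLC39A14, ACO1 and NCOA4 were the 5 that fell, against 13.8%. In EV 100K against EV 10K, FTH1 and NCOA4 fell and no member rose, where 7.23% of all genes fell and 3.70% rose (10.9% called). In EV 10K against EV 2.8K, SLC39A14 fell and no member rose, where 2.22% of all genes fell and 4.15% rose (6.38% called). The joint test for any difference between the pellets called 6 members, where 23.3% of all genes were called. Leaving out 1 library gave 4 to 8 members in this test, and ACO1 (adjusted p = 0.0496) lost its call in 7 of those 9 fits. EV 100K against EV 2.8K had a median log2 fold change of -0.80 over the 2 members with a 5′ IRE, 0.15 over the 2 with a 3′ IRE and -1.31 over the 4 others, and of -0.06 over all genes. For EV 100K against EV 10K these medians were -1.22, 0.32, -0.61 and 0.01, and for EV 10K against EV 2.8K they were 0.41, -0.18, -0.20 and -0.01. In EV 100K against EV 2.8K, each IRE group had 1 member that changed and 1 that did not pass. At an unadjusted edgeR p below 0.05, no member was higher in EV 10K against EV 2.8K and 1, IREB2, was higher in EV 100K against EV 10K, and DESeq2 called none higher in either. These 3 comparisons share libraries.

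Beside these falls, 2 of the 4 epithelial markers (KRT8 -1.49 and KRT18 -2.09, adjusted p = 8.47e-06 and 5.21e-07) and VIM (-2.38, adjusted p = 1.41e-06) fell in EV 100K against EV 2.8K, and 4 of these 5 markers fell in EV 100K against EV 10K, while none passed in EV 10K against EV 2.8K (2 at an unadjusted edgeR p below 0.05, both lower, and 0 by DESeq2). The part of this wider shift, and of the mitochondrial share, in the member results was not tested. With mitochondrially encoded genes and the most abundant noncoding entry left out before scaling, every member kept its direction and its call in all 3 comparisons.

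**Figure D3:**
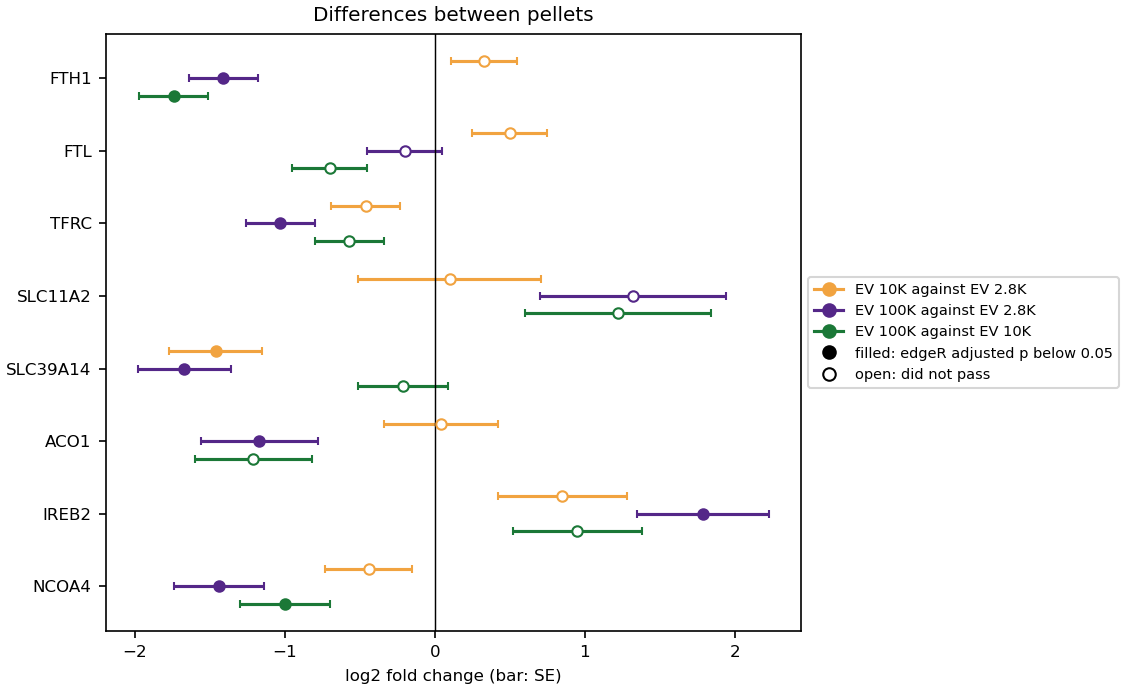
Log2 fold change of each member in the 3 comparisons of pellets (x axis), with bars for 1 SE and filled points where the edgeR adjusted p was below 0.05. Filled points to the left of 0 are falls; IREB2 in EV 100K against EV 2.8K, at 1.79, is the 1 filled point on the right.

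Per kilobase of merged exon length, both ferritin chains stood far above the other members. FTH1 averaged 1409 ± 281 CPM per kb in EV 2.8K, 1765 ± 567 in EV 10K, 531.5 ± 42.5 in EV 100K (SD, n = 3 each) and 395.8 in PC3 cells, and FTL averaged 516.6 ± 180, 730.7 ± 193, 453.4 ± 45.3 and 211.4 in the same order. In EV 100K the libraries of both chains overlapped on this scale (482.5 to 558.1 for FTH1 and 401.6 to 485.2 for FTL). This overlap rests on the merged length of FTH1, 2030 bases, while FTH1-201 has 1229 and FTL has 878 either way. Merged lengths also exceeded those of IREB2-201 (10806 against 6354) and SLC11A2-203 (10145 against 4348). The order of members per kilobase therefore depends on the lengths used. Mitochondrially encoded genes were left out of the ranking. Among the 19956 other protein-coding genes, FTH1 ranked from 2 to 13 in the EV 2.8K and EV 10K libraries, from 28 to 35 in EV 100K and 28 in PC3 cells. TFRC came next at 36.25 ± 5.28, 26.36 ± 9.0 and 17.82 ± 0.734 CPM per kb in the 3 pellets (SD, n = 3 each) and 84.16 in PC3 cells. Below it the order changed between groups.

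In EV 2.8K, SLC39A14 (16.31 ± 3.24 CPM per kb) and NCOA4 (15.51 ± 3.54) did not differ beyond their spread, nor did IREB2 (2.052 ± 1.28) and SLC11A2 (1.507 ± 1.17), with ACO1 at 4.412 ± 0.624 in between. In EV 10K, NCOA4 (11.41 ± 1.1) was followed by SLC39A14 (5.929 ± 1.38), ACO1 (4.530 ± 1.27) and IREB2 (3.685 ± 0.898), neighbours that differed by less than the sum of their SDs, and by SLC11A2 (1.613 ± 0.374). In EV 100K, IREB2 (7.143 ± 1.70) led this group of 5, ahead of NCOA4 (5.734 ± 0.566), SLC39A14 (5.149 ± 1.84) and SLC11A2 (3.785 ± 0.304), neighbours that also differed by less than that sum, and ACO1 was last at 1.968 ± 0.581 (SD, n = 3 throughout). In PC3 cells the order was SLC39A14 (23.38), NCOA4 (19.15), ACO1 (8.343), IREB2 (3.998) and SLC11A2 (2.489 CPM per kb), so by group means IREB2 was next to last of these 5 in the cells and first in EV 100K. The EV 100K order did not hold in every library, since in EV 100K replicate 2 IREB2 (5.191 CPM per kb) lay below SLC39A14 (7.05) and NCOA4 (6.381).

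Against whole cells, the vesicles held more ferritin mRNA and less TFRC mRNA in TMM-scaled CPM, a measure relative to their other RNA. The cell library is single, so these log2 ratios carry no p-value, and a member was counted when all 3 libraries of a pellet lay past 2-fold the same way. FTH1 averaged 3.51-fold higher in EV 2.8K than in PC3 cells (log2 ratios 2.08, 1.87 and 1.49) and 4.31-fold higher in EV 10K (1.64, 2.58 and 2.10), and its ratios in EV 100K were 0.50, 0.48 and 0.29. FTL averaged 3.38-fold higher in EV 10K (log2 ratios 1.47, 2.17 and 1.63). Its ratios were 1.69, 1.35 and 0.63 in EV 2.8K and 1.16, 1.20 and 0.93 in EV 100K, so 1 library in each pellet missed the 2-fold line. On this scale all 9 EV libraries lay above the cells for both chains. For FTH1 in EV 100K this depended on the TMM factors. Its share of raw counts there was 0.0999%, 0.113% and 0.093%, against 0.0966% in PC3 cells, so replicate 3 lay below the cells.

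TFRC lay past 2-fold lower in all 9 EV libraries, with mean log2 ratios of -1.23 for EV 2.8K, -1.73 for EV 10K and -2.24 for EV 100K. SLC39A14 had -0.54, -2.01 and -2.24, ACO1 had -0.93, -0.92 and -2.12, and NCOA4 had -0.33, -0.75 and -1.74 in the same order. Of these, SLC39A14 counted as lower in EV 10K and EV 100K, and ACO1 and NCOA4 in EV 100K. IREB2 and SLC11A2 counted in no pellet, and in EV 100K both had all 3 libraries above the cells, with means of 0.81 and 0.60.

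In EV 2.8K, 1 member was past 2-fold higher and 1 lower, against 3.06% and 12.8% of the 22370 genes compared. In EV 10K, 2 were higher and 2 lower, against 4.85% and 17.0%. In EV 100K, none was higher and 4 were lower, against 10.8% and 18.4%. The median log2 ratio of all genes was -0.35, -0.39 and -0.27. These 22370 genes passed the low-count filter over all 10 libraries. The cells were a group of 1 in that filter, so a gene could be kept by 1 library alone. With size-factor scaling in place of TMM, TFRC no longer counted as past 2-fold lower in EV 2.8K (mean log2 ratio -1.11). In EV 100K, 5 members were past 2-fold with that scaling, and 5 without EV 100K replicate 3, the library in which FTL missed the line. The cell levels had exact 95% Poisson intervals, covering counting error only, of 794 to 813 CPM for FTH1, 181.1 to 190.2 CPM for FTL and 655.2 to 672.4 CPM for TFRC, narrow beside these ratios.

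**Figure D4:**
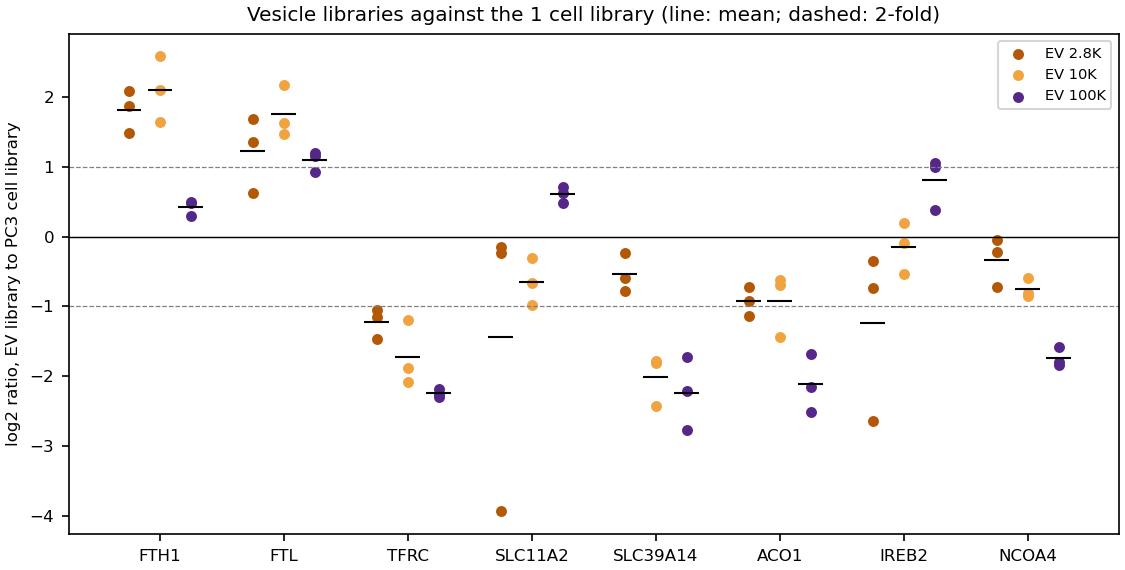
Log2 ratio of each EV library to the 1 PC3 cell library for each member (y axis), with lines for pellet means and dashed lines at 2-fold. TFRC lies below the lower dashed line in all 9 libraries, and FTH1 lies above the upper one in EV 2.8K and EV 10K but not in EV 100K.

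The ratio of ferritin to transferrin receptor reads shows the same contrast inside each library. FTH1 counts were 14.2, 9.15 and 7.59 times TFRC counts in EV 2.8K, 13.9, 16.6 and 22.2 times in EV 10K, 7.72, 8.04 and 7.24 times in EV 100K, and 1.21 times in PC3 cells. FTL counts were 2.51, 1.48 and 0.963 times TFRC counts in EV 2.8K, 2.86, 2.89 and 3.71 times in EV 10K, 2.83, 3.05 and 2.61 times in EV 100K, and 0.28 times in PC3 cells. Every EV library lay above the cell library in both ratios. The SLC11A2 count was 0.0169, 0.212 and 0.156 times the SLC39A14 count in EV 2.8K, 0.675, 0.344 and 0.272 times in EV 10K, 1.19, 0.794 and 1.49 times in EV 100K, and 0.156 times in PC3 cells.

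**Figure D5:**
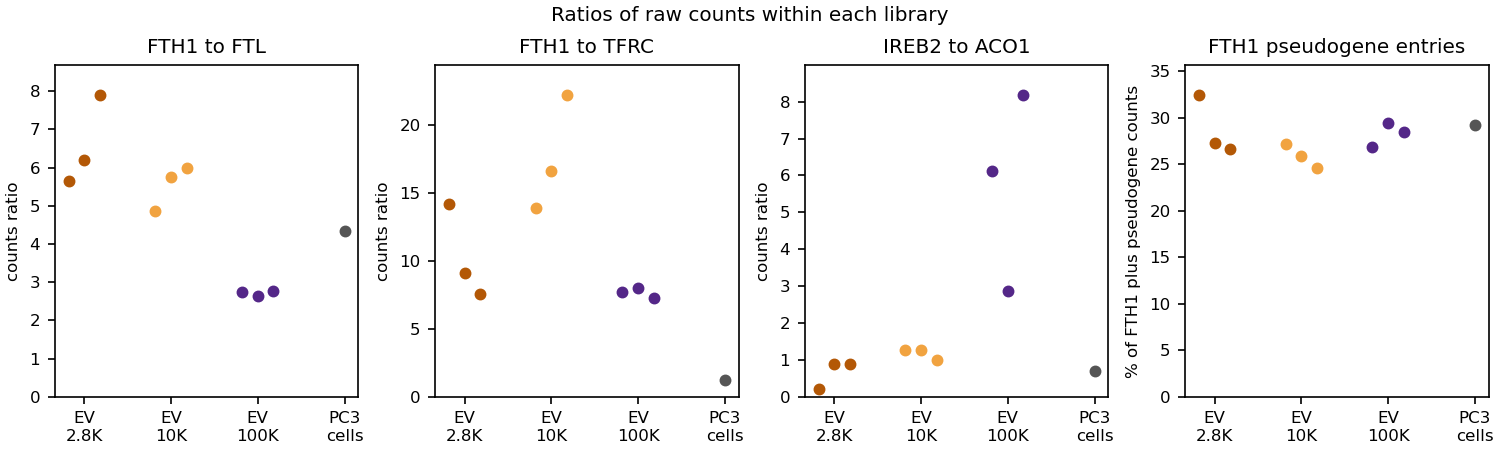
Ratios of raw counts within each library (FTH1 to FTL, FTH1 to TFRC, IREB2 to ACO1) and the share of FTH1 family counts that fell on its pseudogenes, with 1 point per library. EV 100K has the lowest FTH1 to FTL and the highest IREB2 to ACO1 ratios, and the pseudogene share, 24.6% to 32.4%, has no such step.

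FTH1 has many processed pseudogenes, and reads that map to several places could be split among them. Of 25 annotated FTH1 pseudogene entries, 13 had counts, 102072 in all over the 10 libraries. The highest were FTH1P8 (chrX:148052233-148052746, plus strand; 98.05% identical to the FTH1 transcript over 513 aligned bases), FTH1P10 (chr5:17353695-17354624, minus strand; 96.7%) and FTH1P11 (chr8:81521682-81522232, minus strand; 97.1%). Together the FTH1 pseudogene entries held 32.4%, 27.3% and 26.6% of FTH1 plus pseudogene counts in EV 2.8K, 27.2%, 25.9% and 24.6% in EV 10K, 26.8%, 29.4% and 28.5% in EV 100K, and 29.2% in PC3 cells. In EV 100K against EV 2.8K, 7 of the 10 pseudogenes tested fell and none rose (median log2 fold change -1.49), FTH1P8 by 1.34 (SE 0.26, adjusted p = 0.00087). Over all genes, 13.8% fell and 12.0% rose there. In EV 100K against EV 10K, 6 of 10 fell and none rose, where 7.23% of all genes fell and 3.70% rose. Entries so close to FTH1 in sequence may share its reads and are not separate observations. In EV 10K against EV 2.8K, none passed, also none at an unadjusted edgeR p below 0.05 and none by DESeq2, and in the other comparisons neither count held one that rose.

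With the pseudogene counts added to the parent gene, FTH1 gave -1.44 (adjusted p = 0.000129) in EV 100K against EV 2.8K and -1.69 (adjusted p = 0.000124) in EV 100K against EV 10K. Of 16 FTL pseudogene entries, 3 had counts, 4009 in all, of which FTLP3 (chr20:4023917-4024444, plus strand; 97.73% identical over 528 bases) held 3888. FTLP3 was the 1 that could be tested, and it passed in no comparison by edgeR, adjusted or unadjusted, or by DESeq2. The 3 NCOA4 pseudogene entries held 21 counts. FTH1 exons overlap BEST1 on the opposite strand, which had 894 counts in all. Whether the counting used strand is not stated.

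Over the 9 EV libraries, each gene was centred on its mean of log2(CPM + 1), and the likeness of a pair was the root mean square of the difference between the centred values. Mitochondrially encoded genes, the members, clone-type names and symbols ending in P and a number were left out. The last of these rules also dropped coding genes such as PCBP1. Among the 8086 protein-coding genes left with a mean of at least 10 CPM, FTH1 was nearest to ELOB (0.19), OAZ1 (0.208) and BTF3 (0.21). FTL was nearest to G0S2 (0.158), BCL2L12 (0.162) and CREM (0.205), and TFRC to DNAJB11 (0.138), ERLEC1 (0.167) and RNPEP (0.177). Between members, ACO1 and NCOA4 (0.325), TFRC and NCOA4 (0.346) and FTH1 and ACO1 (0.361) were the closest pairs. FTH1 and FTL were farther apart (0.565) than SLC11A2 and IREB2 (0.517). These are descriptions with no test.

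The rest of the iron network was taken from lists of genes by role. Their counts for EV 100K against EV 2.8K stand beside the 12.0% of all genes that rose and the 13.8% that fell in it (25.8% called). Of the other IRE mRNAs, 4 of 6 were tested and 1 rose and 1 fell in EV 100K against EV 2.8K. CDC42BPA, a kinase listed for a 3′ IRE that the motif search here did not match, averaged 256.7 ± 4.10 CPM in EV 100K, against 135.9 ± 39.9 CPM in EV 2.8K (SD, n = 3 each; log2 fold change 0.91, SE 0.22, adjusted p = 0.00476).

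Of the iron transport and reduction genes, 8 of 15 were tested, and 1 rose and 1 fell in EV 100K against EV 2.8K. MCOLN1, a lysosomal channel that releases iron, averaged 5.074 ± 2.32 CPM in EV 100K, against 41.35 ± 13.8 CPM in EV 2.8K (-3.03, SE 0.48, adjusted p = 0.000122). SLC25A37, mitoferrin-1 of the inner mitochondrial membrane, averaged 43.49 ± 2.58 CPM in EV 100K, against 17.61 ± 2.54 CPM in EV 2.8K (1.30, SE 0.35, adjusted p = 0.00967), a call lost without EV 100K replicate 1 (adjusted p = 0.0587). Of 6 iron chaperone and IRP control genes, 5 were tested and HERC2, part of the machinery that controls IRP2 degradation through FBXL5, rose (0.62, SE 0.22, adjusted p = 0.0474). The HERC2 call was lost in 5 of the 9 leave-one-out fits, those that left out EV 2.8K replicate 2, EV 2.8K replicate 3 or an EV 100K library (adjusted p up to 0.147), and without a filter on low counts (0.0537).

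Of the iron-sulfur cluster assembly genes, 22 of 23 were tested, and 3 rose and 2 fell in EV 100K against EV 2.8K. IBA57, a late factor in mitochondrial cluster assembly, had 18.33, 8.991 and 8.664 CPM in EV 2.8K, 124.3, 71.41 and 59.29 CPM in EV 10K, 256.3, 191.2 and 248.8 CPM in EV 100K, and 16.59 CPM in PC3 cells. The pellets did not overlap and rose in order, and the cells sat within the EV 2.8K range. IBA57 passed in EV 100K against EV 2.8K (4.27, SE 0.36, adjusted p = 1.12e-07), in EV 100K against EV 10K (1.44, SE 0.32, adjusted p = 0.00563) and in EV 10K against EV 2.8K (2.83, SE 0.34, adjusted p = 3.72e-05), where it was the 1 gene of the list that did. CIAO2B, of the cytosolic targeting complex, fell in EV 100K against EV 2.8K (-2.47, SE 0.33, adjusted p = 1.73e-05), and so did HSPA9, the mitochondrial chaperone mortalin (-1.15, SE 0.20, adjusted p = 0.000246).

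Of the heme genes, 15 of 16 were tested, and 2 rose and 4 fell in EV 100K against EV 2.8K. The synthesis enzyme UROS averaged 197.4 ± 36.6 CPM in EV 100K, against 34.94 ± 10.9 CPM in EV 2.8K (SD, n = 3 each; 2.49, SE 0.27, adjusted p = 1.78e-06). ALAD, an earlier enzyme of the same path, averaged 29.55 ± 9.52 CPM in EV 100K, against 11.15 ± 3.33 CPM in EV 2.8K (1.4, SE 0.41, adjusted p = 0.0162), a call lost without EV 100K replicate 3 (adjusted p = 0.148). HMOX1, the inducible enzyme that breaks heme down, averaged 2.475 ± 0.785 CPM in EV 100K, against 20.35 ± 8.55 CPM in EV 2.8K (-3.04, SE 0.73, adjusted p = 0.00422). UROS (1.59, SE 0.26, adjusted p = 0.000775) and ALAD (1.62, SE 0.41, adjusted p = 0.0223) also rose in EV 10K against EV 2.8K, and these were the 2 heme genes called there. The ALAD call was lost without EV 10K replicate 3 (adjusted p = 0.0743).

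In EV 100K against EV 10K, the calls were 0 higher and 1 lower for transport, 2 and 2 for iron-sulfur assembly and 1 and 2 for heme, with none among the other IRE mRNAs or the chaperones. In EV 10K against EV 2.8K, no gene of those last 2 lists or of transport was called. Over all genes, 3.70% rose and 7.23% fell in EV 100K against EV 10K. There the higher heme gene was UROS (0.90, adjusted p = 0.026), a call lost in 5 of the 9 leave-one-out fits. The lower transport gene was MCOLN1 (-1.90, adjusted p = 0.0121), a call lost in 2 of them. For EV 100K against EV 10K, an unadjusted edgeR p below 0.05 took 1 gene of the other IRE mRNAs (lower) and 1 of the chaperones (higher), and DESeq2 called 0 and 1. For EV 10K against EV 2.8K it took 1 of the other IRE mRNAs (higher), 0 of the chaperones and 2 of transport (lower), and DESeq2 called 1, 0 and 0. Of 5 hepcidin axis genes, 2 were tested and none was called in any comparison by edgeR. An unadjusted edgeR p below 0.05 took BMP6 in EV 100K against EV 2.8K and ERFE in EV 10K against EV 2.8K, both lower, and DESeq2 called 1 lower in each. BMP6, which had the higher mean CPM of the 2 over all libraries, averaged 11.87 ± 6.36 CPM in EV 2.8K, 3.412 ± 2.97 CPM in EV 10K and 1.040 ± 0.390 CPM in EV 100K (SD, n = 3 each). The median log2 fold changes for EV 100K against EV 2.8K were -0.91 for the other IRE mRNAs, -1.36 for transport, 0.08 for chaperones, -0.19 for iron-sulfur assembly, -0.54 for heme and -2.81 for the hepcidin axis, beside -0.06 over all genes.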

How the data were processed

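The deposited table holds whole-number read counts per gene for 10 libraries, not normalized by the authors. Per the labels' protocols, RNA was extracted with Trizol and sequenced after library preparation with the SMARTer Pico v2 stranded kit. Per the submitters' processing notes, the tools were featureCounts 1.6.3, STAR 2.6.1d, cutadapt 2.7 and bcl2fastq 2.19.1.403, with GRCh38. The annotation, the strand setting and the handling of multi-mapping reads were not given in the sources used here, and counts of genes with near-identical copies are uncertain. Groups and set numbers came from the sample titles. Of the 94946 entries, 45574 matched a GENCODE 29 identifier, and the other 49372 were taken, for lack of a match, as noncoding RNA catalogue entries.

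The pellets were compared with edgeR 4.0.16 (R 4.3.3) on the 9 EV libraries: filterByExpr with a minimum count of 10, TMM, robust quasi-likelihood F-test, Benjamini-Hochberg over 15525 genes, threshold 0.05, 6 residual degrees of freedom. All 8 members passed the filter. The SE is the absolute log2 fold change over the square root of F. Ratios to the cells used log2 CPM with a prior count of 0.5. IRE matches were searched in basic protein-coding transcripts of GENCODE 29.

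The members and lists were chosen with earlier results of these data known. Other iron genes were named by rule: up to 3 per list with the smallest joint p among those called, or else the 1 with the highest mean CPM; pseudogenes by total counts; similar genes by the smallest distance. A gene that this rule names is not reported here. Alternatives were size-factor scaling, DESeq2 1.42.0, no filter, other sample sets, a replicate block, removal of mitochondrial genes and leaving out each library. The procedure was tested on simulated data. Because reads are not independent molecules, intervals and floors describe counting error alone.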

Additional observations from a re-analysis of the deposited data

How the results depend on the processing

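Of 1036 values recomputed for members and named genes under the alternatives, 957 kept their direction and their side of the threshold, 24 newly passed it, 43 no longer passed, 7 changed sign and 5 moved in another way. The sign changes were all among values that did not pass and came from leaving out 1 library: SLC11A2 in EV 10K against EV 2.8K had a range of -0.43 to 0.57, ACO1 in that comparison -0.04 to 0.25, FTL in EV 100K against EV 2.8K -0.39 to 0.07, and SLC39A14 in EV 100K against EV 10K -0.50 to 0.02. The number of genes called for EV 10K against EV 2.8K was 990, with 1635 by DESeq2, 561 from the 6 libraries compared and 557 to 1173 without 1 library (557 without EV 10K replicate 1). For EV 100K against EV 10K it was 1697, with 2777 from the 6 libraries compared and 979 to 2549 without 1 library. Members called there were 2, with 4 from all 10 libraries, 6 from the 6 libraries compared and 1 to 6 without 1 library. Leaving out EV 2.8K replicate 1 gave the 2549 genes and 6 members. Leaving out EV 10K replicate 3, EV 100K replicate 1 or EV 100K replicate 3 gave 979 to 1033 genes, and each of these, EV 10K replicate 2 and EV 100K replicate 2 gave 1 member. Members past 2-fold in EV 2.8K against PC3 cells were 2, with 3 without EV 2.8K replicate 3 and 1 with size-factor scaling, where TFRC missed the line. In EV 100K against PC3 cells they were 4, with 5 under size-factor scaling or without EV 100K replicate 3. The cause of these shifts was not tested.

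Without a filter on low counts, ACO1 in EV 100K against EV 2.8K (adjusted p = 0.0517) and NCOA4 in EV 100K against EV 10K (adjusted p = 0.0706) no longer passed, and FTL in EV 100K against EV 10K did (adjusted p = 0.024), as did SLC11A2 in EV 100K against EV 2.8K (adjusted p = 0.0397, and 0.0309 from all 10 libraries). From the 6 libraries compared, FTL, SLC11A2, ACO1 and IREB2 also passed in EV 100K against EV 10K (adjusted p = 0.0179, 0.0126, 0.0246 and 0.0222), as FTL and ACO1 did from all 10 libraries (0.0237 and 0.0481) and ACO1 by DESeq2 (0.0317). With a replicate block in edgeR, 1075, 3964 and 1875 genes and 1, 6 and 3 members were called for EV 10K against EV 2.8K, EV 100K against EV 2.8K and EV 100K against EV 10K, with FTL the member gained (adjusted p = 0.0298). Whether the set numbers pair the samples stays unsettled, since the deviations of the libraries correlated only weakly over genes. Same-numbered libraries gave -0.005 to 0.038 and differently numbered ones -0.035 to 0.02, and not every library correlated best with its own number. Depth limits the members with few counts, such as ACO1 with 69 to 107 in EV 100K, while the 21 counts of SLC11A2 in EV 2.8K replicate 1 came from a library of 14856424 counts, among the deeper EV libraries.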
